A study of Mus musculus with 10 samples.

Results

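The ERBB receptors and their ligands were followed as 10 mouse genes in 10 cell lines of a mammary carcinoma. The genes were taken by name from 55418 named genes in the deposited gene table. No rule used their values, though earlier results of these data were known when they were chosen. They are the receptor genes Egfr, Erbb2, Erbb3 and Erbb4, the Egfr ligand genes Areg, Ereg, Hbegf, Tgfa and Btc, and the neuregulin gene Nrg1. After a filter on low counts, 19936 genes were tested, and 8 of the 10 were among them. Erbb4 and Ereg were at or close to 0 and were not tested.

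The parental line is 4T1-hHER2, mouse breast cancer cells of the strain BALB/cfC3H into which a lentivirus brought human HER2 and luciferase, with 1 library. The 9 derived lines descend from it and were grown out of NSG mice (labelled NOD-SCID-GAMMA), hosts without functional lymphocytes: primary 5, 7 and 8 from fat pad xenografts, CTC 1, 3 and 6 from circulating tumour cells, and metastasis 5, 3 and 7 from lung. Each of the 9 goes back to circulating tumour cells taken from NSG mice that bore spontaneously metastasising 4T1-hHER2 tumours, so the primary lines too had passed through blood. Each line has 1 library of polyA RNA, no treatment is named, and the labels do not say whether a line is 1 clone or how many animals it came from. The p-values therefore measure the spread between lines. The human HER2 insert has no row of its own among these mouse genes and was not analysed here. Human HER2 reads that resemble the mouse gene could be counted under Erbb2, and their part in the Erbb2 values was not tested.

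ERBB receptors are membrane tyrosine kinases that pair on ligand binding and signal through RAS to ERK and through PI3K to AKT. Egfr binds Areg, Ereg, Hbegf, Tgfa and Btc, while neuregulins bind Erbb3 and Erbb4, and Hbegf, Btc and Ereg also bind Erbb4. Erbb2 has no known ligand and acts as a partner, and Erbb3 has a weak kinase and signals mainly through its partner. Most ligands are made as membrane proteins and are released by ADAM proteases, and in the mammary gland Areg carries the oestrogen signal for duct growth.

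On mouse build GRCm38 (GENCODE M21), Ereg, Areg and Btc lie near each other on chromosome 5. Ereg spans chr5:91074622-91093646 and Areg chr5:91139599-91148432, both on the plus strand, with 46.0 kb and 0 annotated genes between them. Btc spans chr5:91357261-91402994 on the minus strand, 208.8 kb beyond Areg, with 2 genes between, neither of them protein-coding. The RefSeq promoter table (GRCm38.p6) had entries for 6 of the 10 genes. The 250 bases before the annotated start are printed for Areg and Btc, both of which were lower in metastasis than in primary lines without overlap, and for Tgfa, whose fitted change there was the smallest. Capitals mark matches to the searched motifs:
Areg, chr5:91139349-91139598, plus strand: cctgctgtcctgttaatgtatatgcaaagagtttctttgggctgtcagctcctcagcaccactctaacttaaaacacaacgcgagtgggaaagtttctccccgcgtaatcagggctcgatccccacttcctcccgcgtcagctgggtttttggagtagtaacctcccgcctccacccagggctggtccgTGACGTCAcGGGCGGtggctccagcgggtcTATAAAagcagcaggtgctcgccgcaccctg
Btc, chr5:91402995-91403244, minus strand: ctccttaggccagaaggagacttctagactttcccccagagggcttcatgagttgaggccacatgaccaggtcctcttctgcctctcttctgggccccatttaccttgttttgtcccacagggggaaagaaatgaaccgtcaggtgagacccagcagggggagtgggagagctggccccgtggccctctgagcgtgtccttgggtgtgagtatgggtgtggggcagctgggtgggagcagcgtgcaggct
Tgfa, chr6:86194972-86195221, plus strand: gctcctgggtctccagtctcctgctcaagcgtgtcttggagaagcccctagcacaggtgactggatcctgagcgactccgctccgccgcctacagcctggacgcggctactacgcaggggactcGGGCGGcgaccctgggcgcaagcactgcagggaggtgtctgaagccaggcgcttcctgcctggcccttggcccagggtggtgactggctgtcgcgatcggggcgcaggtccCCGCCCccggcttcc

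The motifs searched, on both strands, were the cAMP response element TGACGTCA, the TATA box TATAAA, the AP-1 site TGAGTCA and the GC box GGGCGG, and no match overlaps another. In Areg, TGACGTCA lies 61 to 54 bases before the start, GGGCGG 52 to 47 and TATAAA 31 to 26. Of 32851 promoter entries cut to the same length, 1.55% hold TGACGTCA, 12.4% TATAAA, 4.46% TGAGTCA and 32.7% GGGCGG. In Tgfa, the GC box lies 126 to 121 bases before the start and, on the opposite strand, 15 to 10. In Btc the window holds none of the 4 motifs. The share of G and C is 57.2% in the Areg window, 59.6% in Btc and 69.2% in Tgfa, against a median of 52.4% over the entries. A match is a description of the letters and not of binding.

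Library totals were 79869760 to 97722716 estimated counts, and assembled transcripts without a gene name took 19.7 to 22.8% of them. Levels are given as CPM, counts of the named genes divided by each library's TMM-adjusted size. A count of 0 allows a level of up to 0.039 to 0.0465 CPM, depending on the library (3 counts, counting error only). Of 6 epithelial markers, Epcam, Cdh1, Krt8, Krt18 and Cldn3 were present in every library, while Krt14 ran from 0 in CTC 1 and metastasis 3 to 78.4 CPM in primary 7. The summed level of 5 blood cell markers was at most 0.947 CPM, of 4 lung epithelial markers at most 2 CPM, of 4 endothelial markers at most 1.31 CPM and of 4 adipocyte markers at most 0.316 CPM, with Adgre1, Cd3e, Sftpc and Lep at 0 in all 10 libraries. The 5 fibroblast markers summed to 5.1 CPM in the parental line, 4.88 to 77.2 CPM in primary, 10.9 to 142 CPM in CTC and 14.8 to 303 CPM in metastasis lines. Pdgfra made up most of the sum, at up to 269 CPM in metastasis 5, where Pdgfrb (18.7 CPM) and Dcn (12.4 CPM) were also at their highest. Pdgfrb was at 15.4 CPM in primary 5. The collagens stayed low, with Col1a1 at most 2.32 CPM and Col3a1 at most 0.325 CPM. Lung epithelial markers summed to 1.05 CPM in the parental line and 0.66 to 0.92 CPM in primary lines. Their sum was 0.244 to 0.619 CPM in CTC lines and 0.995 to 2 CPM in metastasis lines. Of these markers, Ager was highest in metastasis 7, at 1.92 CPM.

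**Figure D1:**
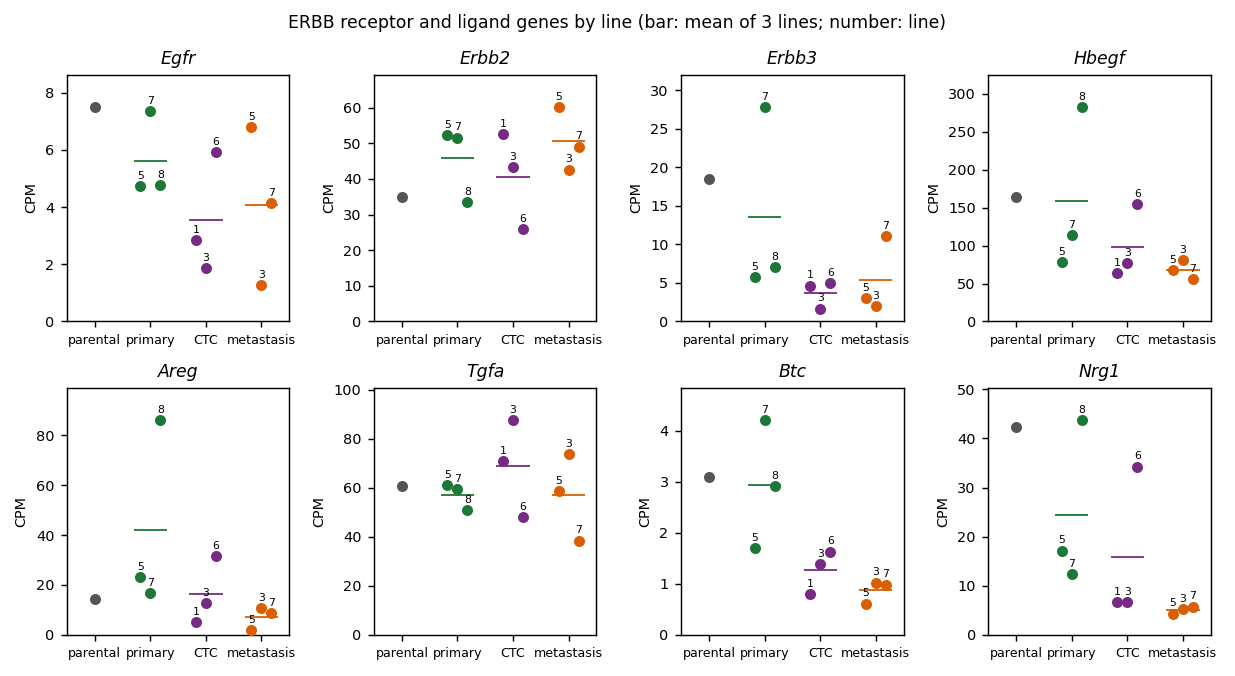
Level of each of the 8 tested genes (y axis, CPM, linear and starting at 0) in the parental, primary, CTC and metastasis lines. Each point is 1 library with its line number and bars are means of 3 lines; for Areg, Btc and Nrg1 the 3 metastasis points lie under the 3 primary points, while Erbb2 and Tgfa overlap in every group.

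Among the receptors, Erbb2 was the most abundant, and none of the 3 tested receptors differed between groups by edgeR's quasi-likelihood test after Benjamini-Hochberg adjustment. Erbb2 (chr11:98412470-98437716, plus strand) stood at 34.8 CPM in the parental line, 52.3, 51.6 and 33.4 CPM in primary 5, 7 and 8, 52.6, 43.3 and 25.9 CPM in CTC 1, 3 and 6, and 60.3, 42.6 and 49.1 CPM in metastasis 5, 3 and 7. The groups overlap, with means of 45.8 ± 10.7 CPM in primary, 40.6 ± 13.5 CPM in CTC and 50.7 ± 8.91 CPM in metastasis lines (SD, n = 3 each). The lowest derived lines, CTC 6 and primary 8, are the derived lines with the most Nrg1. Metastasis exceeded primary lines by 0.15 on the log2 scale (SE 0.32, adjusted p = 0.901), and without primary 8 the difference was -0.03. Some exon bases of Erbb2 overlap those of Mien1 on the opposite strand, and no source used here says whether counting used strand, so a part of its reads cannot be assigned with certainty. Tgfa, Nrg1 and Ereg likewise overlap a gene on the opposite strand.

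Egfr (chr11:16752203-16918158, plus strand), the receptor of the Egf-like ligands, was low. It stood at 7.51 CPM in the parental line, 4.74, 7.37 and 4.77 CPM in primary 5, 7 and 8, 2.84, 1.86 and 5.93 CPM in CTC 1, 3 and 6, and 6.81, 1.27 and 4.14 CPM in metastasis 5, 3 and 7. CTC 3 and metastasis 3 were the lowest lines, and each pair of derived groups overlaps. The change in metastasis against primary lines was -0.47 (SE 0.63, adjusted p = 0.83, edgeR). In metastasis against CTC lines it was 0.20, and this sign turned without metastasis 5, to -0.39.

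Erbb3 (chr10:128567523-128589652, minus strand), the neuregulin receptor known to pair with Erbb2, varied most among the receptors. It stood at 18.5 CPM in the parental line, 5.77, 27.9 and 7.02 CPM in primary 5, 7 and 8, 4.65, 1.67 and 4.94 CPM in CTC 1, 3 and 6, and 3.01, 2.02 and 11.0 CPM in metastasis 5, 3 and 7. Primary 7, the highest line, was 16.7-fold above CTC 3, the lowest. The CTC lines all lay below the primary lines, with a difference of -1.85 (SE 0.84, unadjusted p = 0.0537, adjusted p = 0.994, edgeR), and without primary 7 it was -0.76. Metastasis and primary lines overlap, at -1.34 (SE 0.82, adjusted p = 0.631), and the value was -0.24 without primary 7 and -2.43 without metastasis 7. The lines numbered 7 were the highest of both groups.

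Erbb4 (chr1:68032186-69108059, minus strand), the other neuregulin receptor, had 2 counts in the parental library, or 0.0283 CPM, and 0 in the other 9. Ereg, the epiregulin gene, had 10 counts in metastasis 7, or 0.136 CPM, and 0 in the other 9. Reads of either gene in assembled transcripts without a name cannot be seen here.

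Among the ligands, Areg, Btc and Nrg1 were lower in each of the 3 metastasis lines than in any primary line, and Hbegf was lower on average, but none passed after adjustment. Amphiregulin, Areg, had the widest range of the 8 genes, 43.9-fold from the lowest line to the highest. It stood at 14.5 CPM in the parental line, 23.0, 16.6 and 86.2 CPM in primary 5, 7 and 8, 5.12, 12.8 and 31.5 CPM in CTC 1, 3 and 6, and 1.97, 10.6 and 8.64 CPM in metastasis 5, 3 and 7. Primary 8 stands far above the other primary lines, and CTC 6 is the highest CTC line. The change in metastasis against primary lines was -2.57 (SE 0.91, unadjusted p = 0.0192, adjusted p = 0.594, edgeR). It was -1.48 without primary 8, and the groups still do not overlap. CTC lines overlap both other groups, and CTC against primary lines gave -1.35 (SE 0.87, adjusted p = 0.994), which was -0.26 without primary 8 and -2.22 without CTC 6. Group means were 41.9 ± 38.5 CPM in primary, 16.5 ± 13.5 CPM in CTC and 7.07 ± 4.53 CPM in metastasis lines (SD, n = 3 each).

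Btc, betacellulin, was the least abundant of the tested ligands in counts and the one with the smallest p. It stood at 3.10 CPM in the parental line, 1.70, 4.21 and 2.91 CPM in primary 5, 7 and 8, 0.80, 1.38 and 1.63 CPM in CTC 1, 3 and 6, and 0.61, 1.02 and 0.98 CPM in metastasis 5, 3 and 7. Every primary line lay above every CTC and every metastasis line, the nearest being primary 5 and CTC 6. Group means were 2.94 ± 1.25 CPM in primary, 1.27 ± 0.426 CPM in CTC and 0.872 ± 0.226 CPM in metastasis lines (SD, n = 3 each). Metastasis against primary lines gave -1.75 (SE 0.49, unadjusted p = 0.00563, adjusted p = 0.594, edgeR) and CTC against primary lines -1.21 (SE 0.48, unadjusted p = 0.0322, adjusted p = 0.994). DESeq2 gave the first the same size with an adjusted p of 0.0406, the only call of any of the 8 genes under an alternative. Over all genes DESeq2 also called more in this comparison than edgeR, which called 0, as given in the last section.

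Nrg1 (chr8:31814551-32884029, minus strand), the ligand of Erbb3 and Erbb4, was high in 3 lines of different origin. It stood at 42.4 CPM in the parental line, 17.1, 12.3 and 43.8 CPM in primary 5, 7 and 8, 6.63, 6.63 and 34.3 CPM in CTC 1, 3 and 6, and 4.33, 5.16 and 5.73 CPM in metastasis 5, 3 and 7. The metastasis lines were close to each other, at 5.07 ± 0.701 CPM (SD, n = 3), and lay below each line of the other groups. The change was -2.27 against primary lines (SE 0.73, unadjusted p = 0.0128, adjusted p = 0.594, edgeR) and -1.64 against CTC lines (SE 0.72, unadjusted p = 0.048, adjusted p = 1). Without primary 8 the first was -1.53, and without CTC 6 the second was -0.38. CTC against primary lines gave -0.62, which was -1.88 without CTC 6 and 0.11 without primary 8.

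Hbegf, heparin-binding EGF-like growth factor, was the ligand with the highest level. It stood at 164 CPM in the parental line, 77.8, 114 and 283 CPM in primary 5, 7 and 8, 63.5, 77.0 and 155 CPM in CTC 1, 3 and 6, and 67.2, 80.8 and 55.7 CPM in metastasis 5, 3 and 7. Primary 8 and CTC 6 were again the highest of their groups, and metastasis 3 lay above primary 5, so these groups overlap. The change in metastasis against primary lines was -1.22 (SE 0.51, unadjusted p = 0.0401, adjusted p = 0.594, edgeR) and was -0.49 without primary 8. Group means were 158 ± 110 CPM in primary, 98.3 ± 49.1 CPM in CTC and 67.9 ± 12.5 CPM in metastasis lines (SD, n = 3 each). Tgfa (chr6:86195223-86275719, plus strand), transforming growth factor alpha, ran differently. It stood at 60.8 CPM in the parental line, 61.2, 59.6 and 51.1 CPM in primary 5, 7 and 8, 70.9, 87.7 and 48.1 CPM in CTC 1, 3 and 6, and 58.8, 73.9 and 38.4 CPM in metastasis 5, 3 and 7. Its highest lines were CTC 3 and metastasis 3, and its lowest was metastasis 7. The change in metastasis against primary lines was -0.01 (SE 0.31, adjusted p = 0.998), with a sign that turned under other scalings, from -0.01 to 0.05 with library totals.

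**Figure D2:**
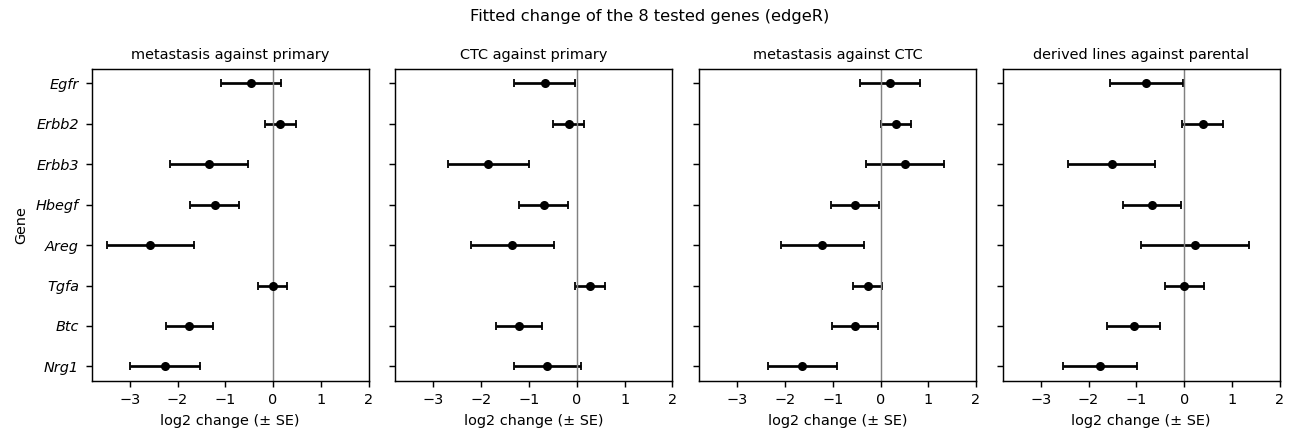
Fitted log2 change of the 8 tested genes (x axis; points with SE bars) in the 4 comparisons, by edgeR. In metastasis against primary lines Areg, Nrg1, Btc, Erbb3 and Hbegf lie lowest, between -2.57 and -1.22, while Tgfa and Erbb2 lie near 0.

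Set against all genes tested, 0 of the 8 passed an adjusted p of 0.05 in metastasis against primary lines, where 0% of genes did. At an unadjusted p under 0.05 there were 4 of 8 (Areg, Hbegf, Btc and Nrg1), against 8.29% of all genes. In 3 of 8 (Areg, Btc and Nrg1) the metastasis lines all lay below the primary lines, against 7.27% of all genes, and in 0 of 8 all lay above. The median change of the 8 was -1.28 and 7 were below 0, while the median over all genes was 0.01 with 49.5% below 0. The genes were chosen as a family with earlier results of these libraries known, and the 4 ligands vary together from line to line, so these counts are a description.

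In CTC against primary lines 0 of 8 passed, with 0% of all genes called. Btc alone had an unadjusted p under 0.05, against 4.06% of all genes, and Erbb3 and Btc had CTC lines wholly below primary lines, against 4.02%. The median change was -0.68, with 7 below 0 and Tgfa above, at 0.27 (SE 0.31), while the median over all genes was -0.01 with 50.6% below 0. In metastasis against CTC lines 0 of 8 passed, against 0.00502% of all genes, and Nrg1 was the 1 gene at an unadjusted p under 0.05 (3.29% of all genes) and the 1 without overlap, lower (3.85%). The median change was -0.40 with 5 below 0, beside 0.00 and 49.6% over all genes. The test of any difference among the 3 groups passed 0 of 8, with 0% of all genes, and had 3 of 8 at an unadjusted p under 0.05, namely Btc (0.0121), Nrg1 (0.0381) and Areg (0.0481), against 5.2%. These comparisons share their lines and do not count as separate evidence.

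Derived lines were set against the single parental library, which was assumed to vary like the others. Here 0 of 8 passed, against 0.0201% of all genes, and Nrg1 alone had an unadjusted p under 0.05 (10.3% of all genes), at -1.76 (SE 0.77, unadjusted p = 0.0479, adjusted p = 0.482, edgeR). The parental level of Nrg1, 42.4 CPM, was passed only by primary 8. Btc changed by -1.06 (SE 0.55, adjusted p = 0.509) and Erbb3 by -1.52 (adjusted p = 0.527), while the parental level of Areg lay within the range of the derived lines (change 0.23).

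Some line numbers recur in 2 groups, and their meaning is not stated in the labels. From primary 5 to metastasis 5, Areg went from 23.0 to 1.97 CPM, a difference of -3.53, with Nrg1 at -1.98 and Btc at -1.44. From primary 7 to metastasis 7, all 8 genes were lower, with Btc at -2.07, Erbb3 at -1.33 and Nrg1 at -1.10. From CTC 3 to metastasis 3 the differences were small, from -0.54 for Egfr to 0.27 for Erbb3. Areg, Btc, Nrg1 and Tgfa were lower in the metastasis line of all 3 pairs, though for Tgfa by no more than 0.63. No share over all genes was taken for these pairs, whose lines are also in the group comparisons, so these counts are a description. With the number as a fixed block, the change of Nrg1 in metastasis against CTC lines was -0.38 and that of Hbegf in metastasis against primary lines -0.61, and with a random block the former was -0.81.

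**Figure D3:**
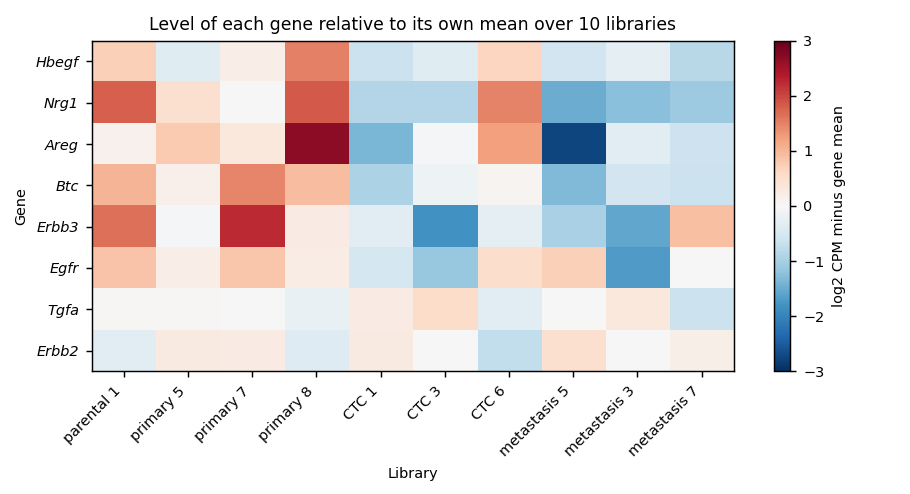
Level of each tested gene relative to its own mean over the 10 libraries (colour, difference in log2 CPM; red above, blue below), with genes in rows and libraries in columns. Hbegf, Nrg1 and Areg are all above their means in primary 8, CTC 6 and the parental line, and Tgfa and Erbb2 show little contrast.

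The 8 genes differed in how far they varied among the 9 derived lines. The SD of log2 CPM was 1.56 for Areg (percentile 91.1 of all tested genes), 1.24 for Erbb3 (82.4) and 1.22 for Nrg1 (81.7), against a median of 0.663 over all genes. Tgfa (0.356, percentile 18.2) and Erbb2 (0.379, percentile 21.3) were among the steadier genes. Over the 10 libraries the ligands Areg, Hbegf, Btc and Nrg1 ran together. Pearson's r of log2 CPM was 0.89 for Hbegf with Nrg1 (Spearman's rho 0.79), 0.80 for Areg with Nrg1 (rho 0.88) and 0.75 for Btc with Nrg1 (rho 0.81). Without the 2 libraries farthest from the median of the first gene, these were 0.81, 0.70 and 0.90. For the other pairs r was 0.79 for Areg with Hbegf (rho 0.81), 0.74 for Hbegf with Btc (rho 0.79) and 0.73 for Areg with Btc (rho 0.81). Without the 2 farthest libraries these pairs were at 0.67, 0.65 and 0.57. Erbb2 ran the other way, at -0.76 with Nrg1 and -0.58 without the 2 farthest libraries. These are descriptions over libraries that share a parent line and 3 title numbers, with no test.

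Erbb3 ran with the epithelial adhesion gene Cdh1 (r 0.90, and 0.83 without the 2 farthest libraries) and with Epcam (0.77), and against Vim (-0.63), the mesenchymal filament gene. Vim itself ranged from 302 CPM in the parental line to 4750 CPM in CTC 1. Btc ran with Cldn3, a tight junction gene (r 0.96), and Areg with Fosl1, an AP-1 subunit gene (r 0.84, and 0.64 without the 2 farthest). The pairs with Cdh1, Cldn3 and Fosl1 are the 3 highest of 48 between the 8 genes and 6 others, and were picked for their values.

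Marker lists of cell type were read beside the ligands in metastasis against primary lines. Of 6 epithelial markers, 5 were below 0 and 1 above, with a median of -1.52, while 49.5% of all genes were below 0. Epcam (-1.99) and Krt14 (-6.95) had metastasis lines wholly below primary lines, against 7.27% of all genes. Epcam stood at 56.3, 204 and 134 CPM in primary 5, 7 and 8 and 21.9, 30.0 and 47.0 CPM in metastasis 5, 3 and 7. Cldn3 (-3.01), Cdh1 (-1.05), Krt18 (-0.27) and Krt8 (0.42) overlapped between the groups. All 5 fibroblast markers were above 0, with a median of 2.60. Of 4 mesenchymal markers 3 were tested, and 2 were above 0 and 1 below, with a median of 0.09. None of these markers passed after adjustment (edgeR), and their part in the ligand differences was not tested.

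For each gene the 3 genes most like it over the 10 libraries were taken by Pearson's r of log2 CPM among 10276 genes (10277 for Btc). For Erbb3 they were Mrpl16 (0.975), Dcbld1 (0.951) and Slc29a2 (0.948), and for Egfr Gnptab (0.905), Mapk9 (0.904) and Ndufs8 (0.903). For Erbb2 they were Zswim3 (0.975), Slc25a17 (0.958) and Usp4 (0.956). For Areg they were Map1b (0.949), Zfp959 (0.947) and Tdp1 (0.932), and for Hbegf Tnfrsf12a (0.972), Mrps27 (0.968) and Ppp2cb (0.964). For Btc they were Krt80 (0.969), Cldn3 (0.963) and Mirt1 (0.950), for Nrg1 Klf6 (0.971), Exosc2 (0.969) and Lrrfip2 (0.967), and for Tgfa Arl4c (0.969), Wdr44 (0.963) and Dhh (0.950). With 10 libraries and this many genes, high values of r are found for any gene.

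To compare levels between genes, CPM was divided by the length of each gene's transcripts, weighted by their counts. Hbegf led at 47.8 CPM per kb (mean of 10 libraries) and lay above each other gene in all 10. Areg followed at 17.4 and Tgfa at 13.6, but Areg was above Tgfa in only 4 libraries, so these neighbours do not differ beyond their spread. Erbb2 came next at 9.12, below Tgfa in 9 libraries, and Nrg1 at 4.78, below Erbb2 in 7. Erbb3 was at 1.44, Btc at 0.636 and Egfr at 0.508, with Btc above Egfr in 6 libraries.

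Of the summed level of the 5 tested ligands per length, Hbegf made up 46.4 to 64.4% in every library. Areg took between 3.65 and 33.1%, Tgfa between 5.32 and 32.4%, Nrg1 between 2.27 and 10.7%, and Btc between 0.472 and 1.83%. The summed ligand level ran from 41 CPM per kb in metastasis 7 to 214 CPM per kb in primary 8, with 107 CPM per kb in the parental line. The summed receptor level moved less, from 6.77 to 16 CPM per kb, of which Erbb2 took 64.7 to 94.9%, Erbb3 2.98 to 29% and Egfr 1.49 to 9.43%.

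**Figure D4:**
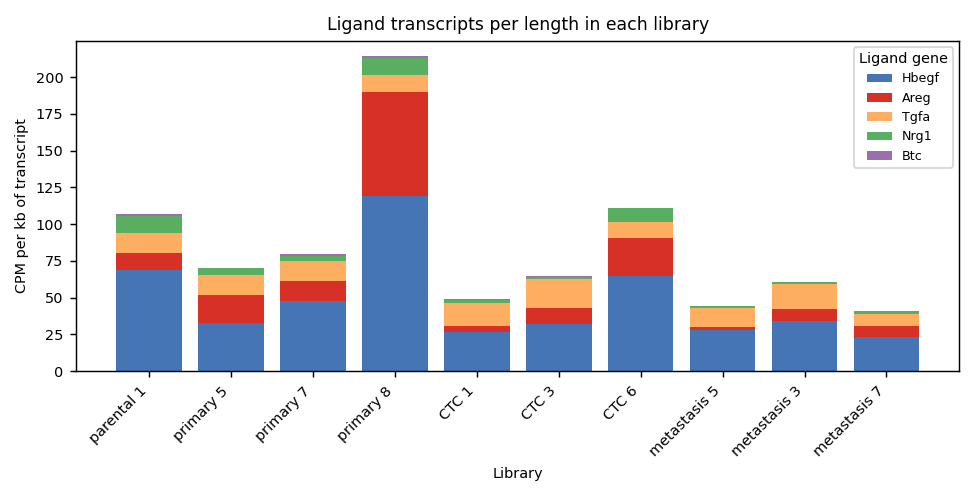
Ligand level per transcript length (y axis, CPM per kb, starting at 0) in each library (x axis), stacked by gene. Primary 8 reaches 214 CPM per kb and metastasis 7 is lowest at 41, with Hbegf the tallest share in each bar.

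The transcript table, whose member transcripts add up to the gene counts, was tested in the same way, with 61244 transcripts. Of these, 23 belong to the 8 genes, and 0 passed in any comparison. Over all transcripts 0% passed in metastasis against primary, 0% in CTC against primary, 0% in metastasis against CTC, and 0.0408% in derived lines against parental. Areg and Erbb3 have 1 annotated transcript each, and 1 transcript held 98.8% or more of the counts of Hbegf, Tgfa and Btc.

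Nrg1, a gene known for many forms from several starts, was the exception among the tested ligands. Of its 18 annotated transcripts 17 had counts, and Nrg1-203 (5415 nt) led with 46.3% of all its counts. Nrg1-203 had 2004 counts in the parental line, 0, 382 and 2222 in primary 5, 7 and 8, 201, 4 and 1051 in CTC 1, 3 and 6, and 0 in each of the 3 metastasis lines. It was thus listed at 0 in 4 lines, one of them a primary line. In primary 5 the largest counts lay on Nrg1-206 (465) and Nrg1-213 (457), and in CTC 3 on Nrg1-206 (288). Metastasis 3 had 120 and 114 on these transcripts and 106 on Nrg1-202. Nrg1-213 had 37 counts in CTC 3, fewer than in CTC 1 (69) or metastasis 7 (60). Metastasis 5 had 23 and 15 counts on Nrg1-206 and Nrg1-213. The largest counts of metastasis 5 lay on Nrg1-212 (151) and Nrg1-210 (82), and those of metastasis 7 on Nrg1-210 (132) and Nrg1-212 (94). The 8 transcripts that start within chr8:32009109-32009491, those named here among them, accounted for 83.6 to 98% of the Nrg1 counts in every library. StringTie divides reads among forms that share exons, and a count of 0 for a form is an estimate.

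**Figure D5:**
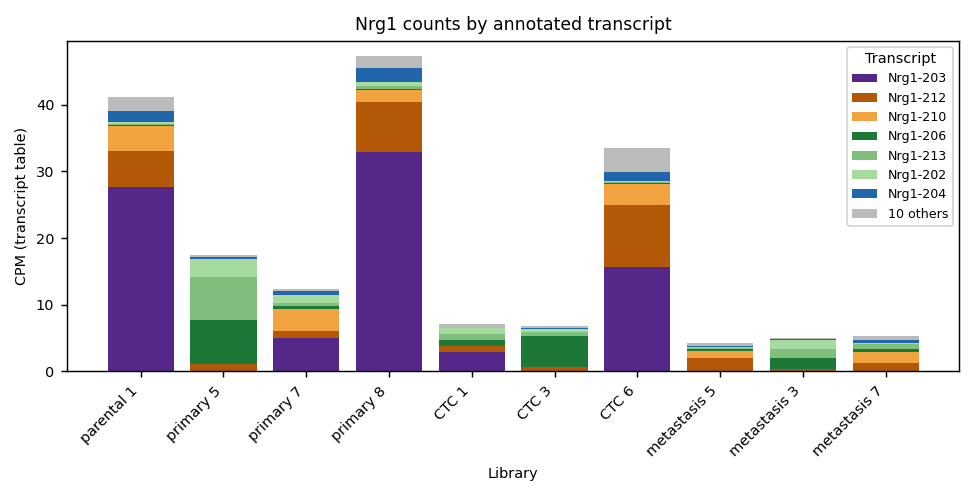
Nrg1 level by annotated transcript (y axis, CPM in the transcript table, starting at 0; colours are transcripts) in each library (x axis). Nrg1-203 carries most of the height in the parental line and primary 8 and has no count in the 3 metastasis lines or primary 5.

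Forms of the receptors also varied in share. Erbb2-202 (4431 nt), annotated without a coding sequence, held 57.5% of the Erbb2 counts in the parental line, 13.8, 18.3 and 35.7% in primary 5, 7 and 8, 0.38, 0.179 and 30.6% in CTC 1, 3 and 6, and 26.2, 15.2 and 28.9% in metastasis 5, 3 and 7. The parental line was highest, and CTC 1 and CTC 3 were close to 0. The coding form Erbb2-201 ranged from 14.3 CPM (1041 counts) in the parental line to 55.8 CPM (3929 counts) in CTC 1. As for Nrg1, the split between forms is an estimate, and the limits given above for Erbb2 reads apply to it. Egfr-202 (2943 nt, with 16 exons against 28 in the full-length Egfr-201) held 0 to 31.2% of the Egfr counts, with 95 counts in metastasis 7 and 0 in CTC 3 and metastasis 3.

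The rest of the pathway was read from lists of genes by role, and 0 genes passed in any list and comparison. Among 4 other tested ligands of the family, Nrg2 (mean 4.65 CPM) and Egf (1.06 CPM) were the most abundant. Their median change in metastasis against primary lines was 0.40, with 3 above 0 and 1 below. Of 6 genes of ligand release and trafficking, Adam10, the protease that frees Btc, averaged 199 CPM and Rhbdf2, which escorts another such protease, 61.5 CPM. In metastasis against primary lines 3 of these 6 were above 0 and 3 below, with a median of -0.19. Of 9 receptor brakes, 6 were above 0 and the median was 0.15, with Lrig1 (mean 319 CPM) and Errfi1 (226 CPM) the most abundant, both lowest in metastasis 7 and highest in metastasis 3.

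Downstream, 13 adaptors and partners had a median change of -0.01 in metastasis against primary lines, the 10 genes of the RAS to ERK chain -0.06 and the 9 of the PI3K to AKT chain -0.09, close to the 0.01 of all genes. Among the most abundant were Cd9 (mean 421 CPM) and Ptpn11 (318 CPM), Nras (240 CPM), and Akt1 (673 CPM) and Akt2 (183 CPM). Among 13 transcripts known to rise with ERK signalling, 8 were above 0 and 5 below, with a median of 0.24. The most abundant, the ERK phosphatase genes Dusp6 (mean 209 CPM) and Dusp4 (192 CPM), ran from 53.6 CPM in the parental line to 428 CPM in CTC 1 and from 93.1 CPM in primary 8 to 320 CPM in metastasis 3. In primary 8, the line with the most ligand per length, Dusp4 was at its lowest, while Fosl1 (502 CPM), Phlda1 (245 CPM) and Dusp5 (61.3 CPM) of the same list were at their highest. In derived lines against the parental line, 12 of these 13 were above 0 and 1 below, with a median of 0.67. Over all genes the median was 0.10, with 46.1% below 0. The 13 values share the 1 parental library and do not count as separate evidence.

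At an unadjusted p under 0.05 in metastasis against primary lines (edgeR) the lists by role held 5 genes, and 8.29% of all genes reached this p. They were Epgn (-1.68), a ligand gene next to Ereg on chromosome 5, Rhbdf2 (-0.63), Dusp5 (-1.37), Fosl1 (-1.61) and Adam12. These are 1 of 4 other ligands, 2 of 6 genes of ligand release and trafficking and 2 of 13 transcripts known to rise with ERK signalling. The lists of receptor brakes (9 genes), of adaptors and partners (13) and of the 2 chains (10 and 9) held 0. No excess over all genes is read from these counts. Adam12, a membrane protease gene, stood at 39.8 CPM in the parental line, 6.18, 92.0 and 96.6 CPM in primary 5, 7 and 8, 0.480, 0.279 and 9.93 CPM in CTC 1, 3 and 6, and 0.0390, 0.210 and 1.02 CPM in metastasis 5, 3 and 7. Its metastasis lines all lay below its primary lines, as in 7.27% of all genes, and metastasis 5 held 3 counts. Those 5 genes, and Phlda1 in primary 8, were singled out after their values were seen.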

How the data were processed

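RNA of 10 mouse lines was sequenced as paired-end libraries. The authors deposited estimated counts for genes and for transcripts. The submitters' processing notes name HISAT2 2.1.0, StringTie 2.0.3, DESeq2 1.26.0 and the build GRCm38. The annotation release and the use of strand are not given in the sources used here. The counts are whole numbers of an estimate, since StringTie shares reads among overlapping transcripts. No 2 libraries held identical counts, and within groups log2 CPM correlated at 0.929 to 0.971.

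Of 72544 entries, 55418 with a gene name were analysed, and 17126 assembled transcripts were left out. Groups follow the titles and source labels. All 10 libraries entered 1 fit of 4 groups with edgeR 4.0.16 (R 4.3.3): TMM scaling, filterByExpr, quasi-likelihood test, and Benjamini-Hochberg adjustment at 0.05. Transcripts were fitted in the same way, after leaving out 1 incomplete entry. The common biological coefficient of variation was 0.606 for genes and 0.847 for transcripts. Changes are log2, SE is the change divided by the square root of F, and log2 CPM has a prior count of 2. On simulated counts for metastasis against primary lines with 19178 genes in the fit, the test called 1 of 96 genes changed 2-fold and 17 of 96 changed 4-fold. Positions are from GENCODE M21 and promoters from RefSeq GRCm38.p6.

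Same-number lines correlated in their deviations from the group means at 0.319 (5), 0.12 (7) and 0.406 (3), against a median of -0.0493 for other pairs. The labels do not say that a number pairs its lines, so the main fit has no block and treats the lines as independent. From these values, a block by number was tried as an alternative, with a correlation of 0.484 within a number in the random block. Other alternatives were DESeq2 1.42.0, limma-voom (limma 3.58.1), other scalings and filters, all entries, and leaving out each derived line. The rule for named genes took the 10 members, the 2 most abundant genes of each pathway list (1 of these is not reported here), and the 3 genes most like each tested member. Markers of cell type are named from their lists, and other genes were named after their values were seen, among them Cdh1, Cldn3 and Fosl1 as correlates, Dusp5, Phlda1, Epgn and Adam12. The members and lists were chosen with earlier results of these data known.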

Additional observations from a re-analysis of the deposited data

How the results depend on the processing

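Of 32 pairs of a gene and a comparison, 19 kept their sign under every alternative run and 13 turned at least once; Btc in metastasis against primary lines was the 1 pair called under any, by DESeq2 at -1.75. The count of genes called depended on the tool. DESeq2 called 175 genes in metastasis against primary, 66 in CTC against primary, 27 in metastasis against CTC, 671 in derived lines against parental and 137 for any difference, where edgeR called 0, 0, 1, 4 and 0. A stricter filter called 1 in metastasis against primary and 1 in derived lines against parental, where limma-voom called 24 and a fit of all entries 42. In metastasis against CTC, no filter, a fit of all entries and a fixed replicate block each called 0. A random replicate block called 1 in metastasis against primary, 1 for any difference and 19 in derived lines against parental. Leaving out 1 line gave 0 to 1 in metastasis against primary, in metastasis against CTC and for any difference. With the fixed replicate block, which leaves 1 residual degree of freedom, signs turned for Egfr in CTC against primary (0.42) and metastasis against CTC (-0.56), Erbb2 in the same (0.11 and -0.04), Hbegf in metastasis against CTC (0.05) and Tgfa in CTC against primary (-0.08). With the random replicate block they turned for Egfr in metastasis against CTC (-0.08), and in derived lines against parental for Areg (-0.04) and Tgfa (-0.06). The block changed no other sign. In the fixed block CTC 3 is the only CTC line that shares its number with another line. Comparisons with CTC lines there rest on it. In derived lines against parental, limma-voom turned Areg (-0.14) and Tgfa (-0.03), and Tgfa was at -0.01 with DESeq2 or its size factors and -0.02 with the stricter filter. In metastasis against primary, Tgfa was at 0.00 with DESeq2 or its size factors, 0.05 with library totals, 0.02 with the stricter filter and 0.01 with all entries. Leaving out 1 line, values ran from -0.11 to 0.38 for Areg and -0.07 to 0.08 for Tgfa (derived against parental), -0.24 to 0.21 for Tgfa and -0.03 to 0.26 for Erbb2 (metastasis against primary), -0.39 to 0.80 for Egfr and -0.58 to 0.90 for Erbb3 (metastasis against CTC), and -0.40 to 0.07 for Erbb2, -1.17 to 0.05 for Hbegf and -1.88 to 0.11 for Nrg1 (CTC against primary). The cause of these shifts was not tested. With 3 lines a group, changes of 2-fold were seldom called in simulated counts.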
